A study of Mus musculus with 12 samples.

Results

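The succinate segment of the tricarboxylic acid (TCA) cycle is the run of mitochondrial enzymes that carries carbon from 2-oxoglutarate through succinyl-CoA, succinate, fumarate and malate to oxaloacetate. It was taken here as 10 genes, chosen by symbol from the 55471 genes of the count table: *Ogdh*, *Dlst*, *Suclg1*, *Sucla2*, *Sdha*, *Sdhb*, *Sdhc*, *Sdhd*, *Fh1* and *Mdh2*. All 10 were present and all 10 passed the filter on low counts, which left 18228 genes for testing. The genes were listed by their place in the pathway, with earlier results of these data known. RNA-seq counted their transcripts in dendritic cells (DCs), which present antigen and here grew out of mouse bone marrow cultured with granulocyte-macrophage colony-stimulating factor.

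All cells carried a retrovirus with a human CD8 reporter, on which transduced cells were sorted, and the marrow came from female C57BL/6 mice. The virus delivered a short hairpin (shRNA), which in shControl cells targeted the luciferase of fireflies and in sh*Ppargc1b* cells the transcript of *Ppargc1b*, the gene of PGC-1β. PGC-1β is a co-activator that works through DNA-bound transcription factors on genes of mitochondrial metabolism. Cells of each kind were left unstimulated or were given the antiviral cytokine interferon-β (IFN-β) for 6 h, which made 4 groups of 3 libraries. The labels did not name the hairpin or say whether the 3 libraries of a group came from separate cultures or mice, so the p-values measure the spread between these libraries, which may be technical. In such bulk RNA, fewer cells of one kind and less RNA per cell cannot be told apart.

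Succinate stands where the TCA cycle and the respiratory chain meet. Succinate dehydrogenase, which is also complex II, oxidises succinate to fumarate and passes the electrons to ubiquinone. Its catalytic part consists of SDHA, a flavoprotein that binds succinate, and SDHB, which carries iron-sulfur clusters, and both are held on the inner membrane by SDHC and SDHD. Ahead of succinate, the 2-oxoglutarate dehydrogenase complex (with OGDH and DLST) makes succinyl-CoA, and succinyl-CoA synthetase (SUCLG1 with SUCLA2 or SUCLG2) turns it into succinate with the formation of a nucleoside triphosphate. Beyond it, fumarate hydratase (FH1) makes malate, and malate dehydrogenase (MDH2) makes oxaloacetate. In activated myeloid cells succinate is known as a signalling metabolite as well as a fuel.

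The genes lay on 9 chromosomes of the GRCm38 assembly. Those for the 2-oxoglutarate dehydrogenase complex were *Ogdh* (chr11:6291633-6356642) and *Dlst* (chr12:85110833-85134845), and those for succinyl-CoA synthetase were *Suclg1* (chr6:73248382-73276911) and *Sucla2* (chr14:73525319-73596142). The Sdh genes were *Sdha* (chr13:74322254-74350280), *Sdhb* (chr4:140961203-140979193), *Sdhc* (chr1:171127165-171150603) and *Sdhd* (chr9:50596357-50603812). *Fh1* (chr1:175600374-175625635) shared its chromosome with *Sdhc*, and *Mdh2* was at chr5:135778480-135790398. No exon of the 10 genes overlapped an exon of another annotated gene, and no stretch of 100 bases of their transcripts recurred in the annotated transcripts of another gene. Head-to-head starts with a neighbour on the other strand, with the annotated starts 98 bases apart or less, were found for *Dlst* with *Prox2*, *Sdha* with *Ccdc127*, *Sdhd* with *Timm8b* and *Mdh2* with *Styxl1*. Only the short stretch between the 2 starts thus lies before both *Sdha* and *Ccdc127*, or before both *Sdhd* and *Timm8b*. Sequence farther before *Sdha* or *Sdhd* runs into the neighbour.

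Promoter sequences of 9 of the 10 genes, all but *Sdhc*, were read from RefSeq (GRCm38.p6), as the 250 bases before each RefSeq start, and were searched on both strands for the binding motifs of 6 factors that are known from genes of the respiratory chain or from promoters in general. The core of the NRF1 motif (GCGCANGCG) was found before 4 genes, *Ogdh*, *Sucla2*, *Sdha* and *Sdhd*, and in 5.16% of the 32851 mouse promoters. In *Sdha* it occurred at 3 places. Here and below, the percentages count single promoters, whereas the members are counted as genes. *Ogdh* counts with a match before any of its 6 RefSeq starts. The sites of *Sdha* and *Sdhd* are shown because these transcripts differed most between the shRNA groups, and those of *Ogdh* and *Sucla2* because these differed less or did not pass the test. Distances are from the RefSeq start, which for some genes is not the end of the gene given above: the sites of *Ogdh* and *Sucla2* and the *Sdha* site nearest to the start lie inside the gene as GENCODE annotates it. By the same annotation, the *Sdha* site 98 bases before the start lies inside *Ccdc127*, and the *Sdhd* site inside *Timm8b*. Capitals mark the motif on the gene's own strand, in its direction or in the reverse.
Sdha, 98 bases before the RefSeq start, chr13:74350330-74350338, minus strand: cgtttacaggGCGCAGGCGcaccaccact
Sdha, 55 bases before the RefSeq start, chr13:74350287-74350295, minus strand: ggggcgtgttGCGCAGGCGcagaatcttc
Sdha, 10 bases before the RefSeq start, chr13:74350242-74350250, minus strand: gcgactcggtGCGCAAGCGcagtctgtcg
Sdhd, 79 bases before the RefSeq start, chr9:50603920-50603928, minus strand: tcgctggggtGCGCACGCGcggtggcagc
Ogdh, 15 bases before the nearest of its 6 RefSeq starts, chr11:6292543-6292551, plus strand: taggtgttgtGCGCATGCGtaactcaact
Sucla2, 16 bases before the RefSeq start, chr14:73552770-73552778, plus strand: tgcgtctctgCGCCTGCGCggtgcccagg

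A site for factors of the ETS family (CCGGAAG, in 6.91% of promoters) was found before *Sdhd* only. It lies, with the motif reversed and in capitals, in the 60 bases between the RefSeq start of *Sdhd* and the first exon of *Timm8b*.
Sdhd, chr9:50603850-50603909, minus strand: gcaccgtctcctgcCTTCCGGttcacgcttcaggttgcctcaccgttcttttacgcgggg

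The cAMP response element (TGACGTCA, in 1.55% of promoters) was found before RefSeq starts of *Ogdh* and *Mdh2* (for *Mdh2* inside the gene as GENCODE annotates it), and the SP1 box (GGGCGG, in 32.7%) before 6 genes. The element of the oestrogen-related receptors, which are partners of PGC-1 proteins (searched as TNAAGGTCA, in 1.14% of promoters), and the YY1 core (AAGATGGC, in 1.56%) were found before none of the 9. No match overlapped a match of another motif. These are matches of letters in a short window, and binding was not measured.
Ogdh, cAMP response element, chr11:6291546-6291553, plus strand: cccaattctgTGACGTCAcgtcacgccc
Mdh2, cAMP response element, chr5:135778522-135778529, plus strand: gagagaatcgTGACGTCAggcctcgctc

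Library totals were 49919648 to 77726101 counts, and levels are given in CPM (counts divided by the library total and scaled to a common total), with trimmed-mean-of-M-values (TMM) factors applied to the library totals. *Fh1* had the fewest counts of the 10, 647 to 1600 in a library, and *Ogdh* the most, 7474 to 12129. Without stimulus, the targeted gene *Ppargc1b* had a level of 34.5 ± 1.94 CPM in the shControl and of 19.4 ± 0.851 CPM in the sh*Ppargc1b* libraries (SD, n = 3), which differed by -0.83 ± 0.10 on the log2 scale (SE, adjusted p = 3.25e-05). With IFN-β the values were 27.8 ± 3.93 and 18.7 ± 2.83 CPM, a log2 difference of -0.57 ± 0.11 (adjusted p = 0.000945). The knockdown was therefore partial in both conditions, and the libraries of the shRNA groups did not overlap. IFN-β itself changed *Ppargc1b* by -0.31 ± 0.10 in shControl (adjusted p = 0.021), a call that was lost without replicate 3 of unstimulated shControl or replicate 2 or 3 of IFN-β-treated shControl (adjusted p = 0.0545 to 0.157), and its value in sh*Ppargc1b* cells was -0.06 (interval -0.29 to 0.17). Of the dendritic-like markers, *Itgax* was at 901 to 1180 and *H2-Aa* at 938 to 1350 CPM in every library, *Zbtb46* was at 16.5 to 33.5 CPM and *Flt3* at 1.45 to 3.81 CPM, and the macrophage marker *Adgre1* was at 140 to 180 CPM.

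**Figure D1:**
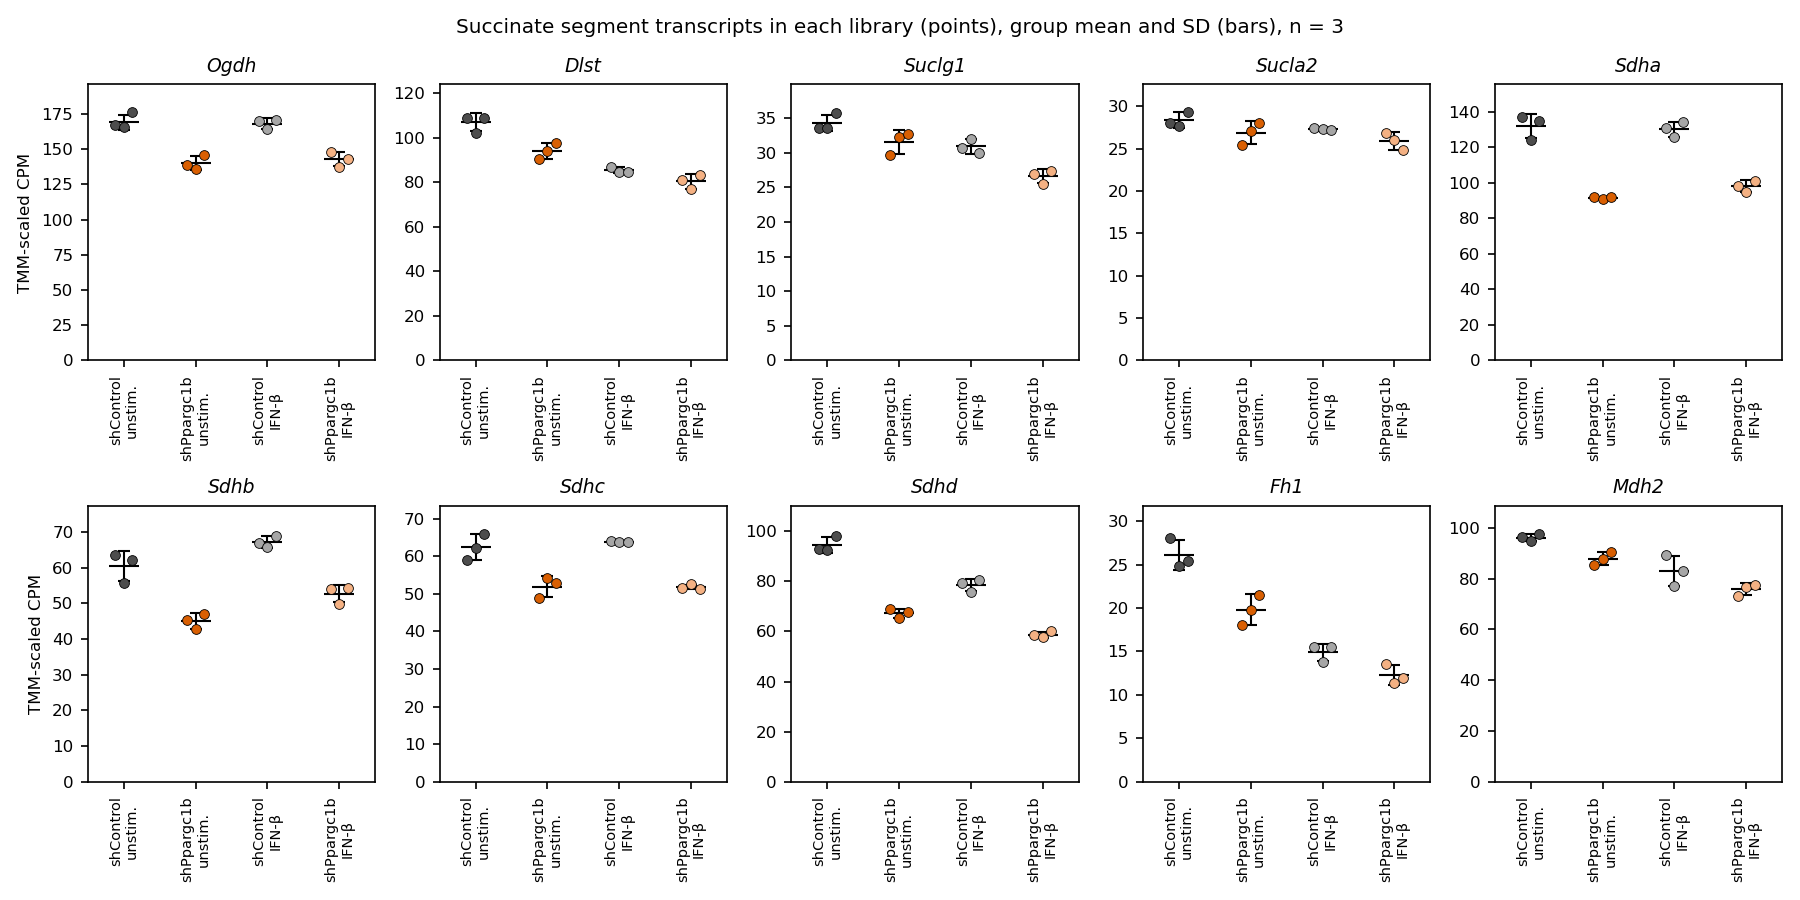
Level of each of the 10 transcripts in TMM-scaled CPM (vertical axes, from 0, each with its own range) in the 3 libraries of each group (points), with the group mean (long dash) and SD (bars). *Sdha* is at 124 to 137 CPM in unstimulated shControl and at 90.9 to 92 CPM in unstimulated sh*Ppargc1b* cells, while *Fh1* falls stepwise from left to right over the 4 group means.

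Knockdown of *Ppargc1b* addressed whether this co-activator is needed for the expression of mitochondrial genes in DCs. In unstimulated cells, 7 of the 10 transcripts were lower in sh*Ppargc1b* than in shControl at an adjusted p under 0.05 and none was higher, and the median log2 fold change over the 10 was -0.27. Over all 18228 genes tested, 11.1% were lower and 12.4% were higher, and the median was 0.00. Among the 8773 abundant genes (mean log2 CPM 3 or more), a range that holds all 10, 17.9% were lower. All 4 subunits of succinate dehydrogenase fell, as did *Fh1*, *Ogdh* and *Dlst*, whereas both subunits of succinyl-CoA synthetase and *Mdh2* did not pass the test. For 9 of the 10 genes every sh*Ppargc1b* library lay below every shControl library, which was so for 18.4% of all genes tested, and *Sucla2* was the exception.

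*Sdha*, for the catalytic flavoprotein, showed the largest difference of the 10. Its level was 137, 124 and 135 CPM in the unstimulated shControl libraries and 92, 90.9 and 91.7 CPM in the sh*Ppargc1b* libraries. The groups were well apart, and the knockdown libraries lay close together. On the log2 scale *Sdha* differed by -0.53 ± 0.04 (SE, adjusted p = 6.69e-07), so that the transcript fell by 30.5%. *Sdhd*, one of the membrane anchors, was at 92.8, 92.4 and 98 CPM in shControl and at 68.8, 65.2 and 67.8 CPM in sh*Ppargc1b* cells. Its log2 fold change of -0.49 ± 0.04 (adjusted p = 6.02e-07) was a fall by 28.7%, close in size to that of *Sdha*.

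*Sdhb*, for the iron-sulfur subunit, was at 63.4, 55.7 and 62 CPM in shControl and at 45.2, 42.7 and 47 CPM in sh*Ppargc1b* cells, with a log2 fold change of -0.42 ± 0.06 (adjusted p = 4.18e-05). *Sdhc*, for the other anchor, was at 59, 62.3 and 65.8 CPM and at 48.8, 54.1 and 52.8 CPM, with a log2 fold change of -0.26 ± 0.05 (adjusted p = 0.000784). The groups did not overlap for either gene, although the gap was smaller for *Sdhc*. Summed over the 4 Sdh genes, the unstimulated level was 349 ± 13.3 CPM with shControl and 256 ± 3.24 CPM with sh*Ppargc1b*, 73.3% of the control.

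*Fh1*, for the enzyme that removes fumarate, was at 28, 24.8 and 25.4 CPM in shControl and at 18, 19.8 and 21.5 CPM in sh*Ppargc1b* cells, a log2 fold change of -0.40 ± 0.08 (adjusted p = 0.00227). This was the least precise of the called differences, with a 95% interval of -0.57 to -0.22. Ahead of succinyl-CoA, *Ogdh*, for the component that decarboxylates 2-oxoglutarate, was at 167, 166 and 176 CPM against 139, 136 and 146 CPM (log2 fold change -0.27 ± 0.04, adjusted p = 0.000182). *Dlst*, for the core component that makes succinyl-CoA, was at 109, 102 and 109 CPM against 90.5, 94.1 and 97.4 CPM (-0.18 ± 0.04, adjusted p = 0.00527). In each of these genes all control libraries were above all knockdown libraries.

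The 3 genes that did not pass the test had smaller differences, with intervals that still allow modest falls. *Mdh2* was at 96.2, 94.7 and 97.4 CPM in shControl and at 85.4, 87.5 and 90.6 CPM in sh*Ppargc1b* cells, and its log2 fold change was -0.13 (95% interval -0.23 to -0.03, adjusted p = 0.0676). Its adjusted p was under 0.05 in 4 of the 18 alternative fits, 0.0466 with a block for runs of library codes, 0.0406 with only the 2 groups compared, and 0.0429 and 0.0399 without replicate 1 or replicate 2 of IFN-β-treated shControl. *Suclg1*, for the subunit common to both forms of succinyl-CoA synthetase, was at 33.6, 33.6 and 35.7 CPM against 29.6, 32.3 and 32.7 CPM (log2 fold change -0.12, interval -0.24 to -0.01, adjusted p = 0.118). *Sucla2*, for the ATP-forming subunit, was at 28, 27.7 and 29.4 CPM against 25.5, 27.1 and 28.1 CPM, and here the groups overlapped (log2 fold change -0.08, interval -0.19 to 0.03, adjusted p = 0.331).

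**Figure D2:**
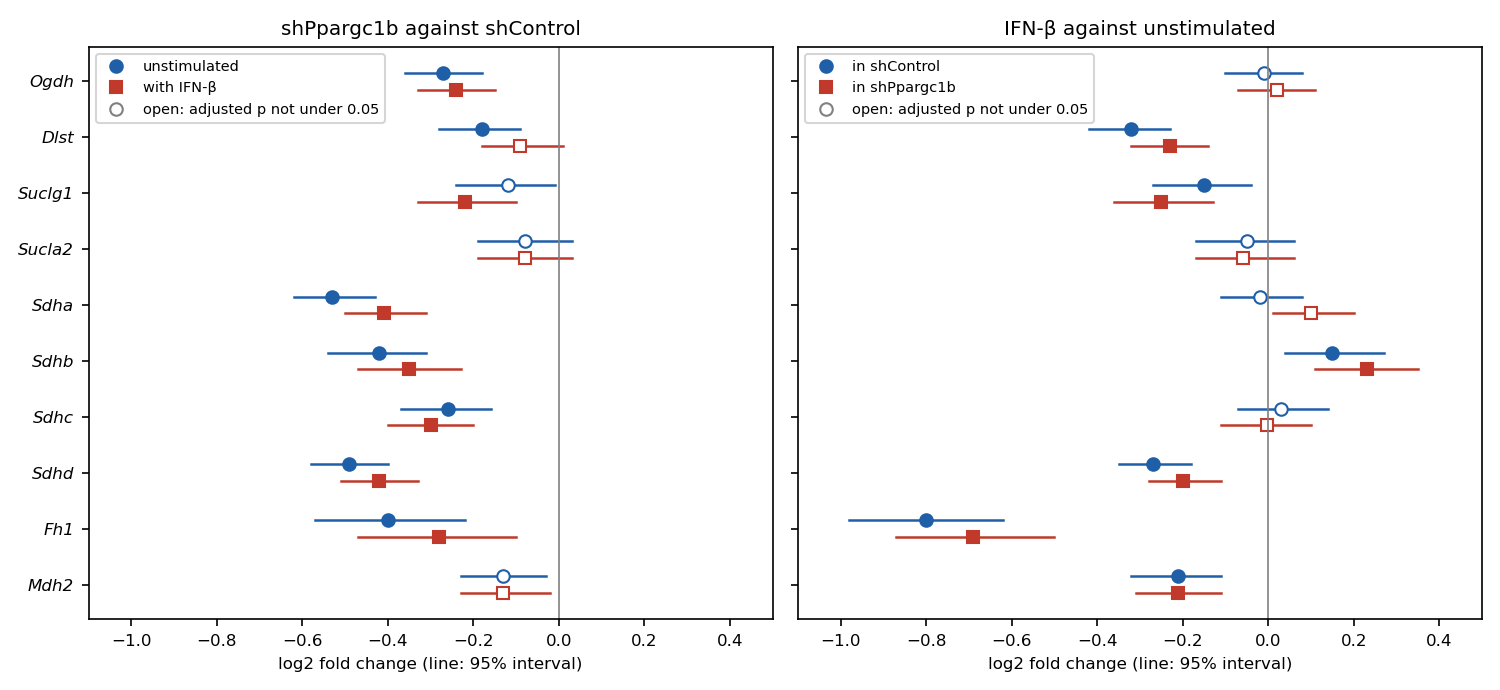
Log2 fold change of the 10 transcripts with 95% intervals for sh*Ppargc1b* against shControl (left) and for IFN-β against unstimulated (right), each in both backgrounds, with filled symbols where the adjusted p was under 0.05. On the left every value is at or below -0.08 and *Sdha* is lowest at -0.53, while on the right *Fh1* stands apart at -0.80 and -0.69 and *Sdhb* is above 0.

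In IFN-β-treated cells the knockdown gave a like picture. Again 7 of the 10 transcripts were lower and none was higher, with a median log2 fold change of -0.26, against 12.7% of all genes lower, 11.5% higher and a median of -0.01. Of the abundant genes 21.0% were lower. All sh*Ppargc1b* libraries were below all shControl libraries for 9 of the 10 genes (20.7% of all genes tested), and the exception was now *Mdh2*. The 6 genes that were lower in both conditions were *Ogdh*, *Fh1* and the 4 Sdh genes. The shControl libraries of the 2 comparisons are different ones, but the spread was estimated from all 12 libraries together.

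*Sdha* was at 131, 126 and 134 CPM in IFN-β-treated shControl and at 98.3, 94.7 and 101 CPM in IFN-β-treated sh*Ppargc1b* cells (log2 fold change -0.41 ± 0.04, adjusted p = 9.13e-06). *Sdhd* was at 79.3, 75.7 and 80.4 CPM against 58.4, 57.8 and 60 CPM (-0.42 ± 0.04, adjusted p = 3.77e-06). *Sdhb* was at 66.8, 65.8 and 68.9 CPM against 54.1, 49.9 and 54.2 CPM (-0.35 ± 0.06, adjusted p = 0.000249). In all 3 genes the lowest control library was well above the highest knockdown library. *Sdhc* was at 64, 63.7 and 63.8 CPM against 51.5, 52.5 and 51.4 CPM, with little scatter (-0.30 ± 0.05, adjusted p = 0.000288). The summed level of the 4 Sdh genes was 340 ± 8.35 CPM in IFN-β-treated shControl and 261 ± 6.12 CPM in IFN-β-treated sh*Ppargc1b* cells.

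*Ogdh* was at 170, 164 and 171 CPM in IFN-β-treated shControl and at 148, 137 and 143 CPM with the knockdown (log2 fold change -0.24 ± 0.04, adjusted p = 0.000667). *Suclg1*, which had missed the threshold in unstimulated cells, was at 30.7, 32 and 29.9 CPM against 26.9, 25.4 and 27.3 CPM (-0.22 ± 0.05, adjusted p = 0.00829). *Fh1* was at 15.5, 13.8 and 15.5 CPM against 13.6, 11.4 and 11.9 CPM, so that its groups nearly touched (-0.28 ± 0.09, adjusted p = 0.0272). That call was lost in 5 of 18 alternative fits, with adjusted p-values from 0.0516 to 0.0858: with the 2 compared groups alone, and without replicate 1 or 3 of IFN-β-treated shControl or replicate 2 or 3 of IFN-β-treated sh*Ppargc1b*. *Dlst* (-0.09, interval -0.18 to 0.01, adjusted p = 0.171), *Mdh2* (-0.13, interval -0.23 to -0.02, adjusted p = 0.0696) and *Sucla2* (-0.08, interval -0.19 to 0.03, adjusted p = 0.313) did not pass the test. *Mdh2* passed it without replicate 2 of IFN-β-treated shControl (adjusted p = 0.00895).

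The knockdown effect with IFN-β was also compared directly with that in unstimulated cells. None of the 10 genes passed this edgeR test of the interaction, none had an unadjusted p under 0.05 in edgeR or in DESeq2, and 0.730% of all genes tested passed. The interaction was largest for *Sdha* and *Fh1*, at 0.12 on the log2 scale for both (*Sdha* 95% interval -0.01 to 0.25, adjusted p = 0.561, and *Fh1* interval -0.14 to 0.37, adjusted p = 0.837). A call in one condition only, as for *Suclg1* and *Dlst*, was thus not a tested difference between the conditions.

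Other transcripts moved with the knockdown in these libraries. Over all genes tested, 11.1% were lower and 12.4% higher without IFN-β, and 12.7% were lower and 11.5% higher with it. Of 7 macrophage-like markers, 3 were lower (*Mertk*, *Mrc1* and *Lyz2*) and 1 was higher (*Cd14*) in unstimulated sh*Ppargc1b* cells, with IFN-β *Fcgr1* was lower as well, and the summed level of the list was 12000 to 12700 CPM in unstimulated shControl and 7640 to 8050 CPM in unstimulated sh*Ppargc1b* cells. With IFN-β it was 11600 to 12300 and 7230 to 8050 CPM, respectively. The median log2 fold change of the 7 was -0.02 without and -0.27 with IFN-β. The fall of the sum was thus not shared by the list as a whole. Of 8 dendritic-like markers, 4 were higher in unstimulated sh*Ppargc1b* cells, with a summed level of 4380 to 5180 CPM in shControl and 5090 to 5870 CPM with the knockdown. With IFN-β 5 were higher, with summed levels of 4740 to 5730 CPM in shControl and 5600 to 6420 CPM in sh*Ppargc1b* cells. The median log2 fold change of the 8 was 0.27 without and 0.31 with IFN-β. The 7 neutrophil-like markers, of which *S100a8* was higher in both conditions, summed to 35.6 to 73.9 CPM in unstimulated shControl, 73.4 to 126 CPM in unstimulated sh*Ppargc1b*, 31.3 to 76 CPM in IFN-β-treated shControl and 66.7 to 121 CPM in IFN-β-treated sh*Ppargc1b* cells. Of the 7 mast cell or basophil-like markers, 3 were higher without and 2 with IFN-β. They summed to 9.2 to 17.2 CPM in unstimulated shControl and 22.8 to 26.8 CPM in unstimulated sh*Ppargc1b* cells. With IFN-β the sums were 12.2 to 18.8 and 18.3 to 26.7 CPM, respectively. The 6 lymphocyte-like markers summed to at most 0.75 CPM in any library, with *Ncr1* and *Nkg7* at under 0.1 CPM throughout. The 5 erythroid-like ones summed to at most 0.295 CPM, with the globin genes *Hbb-bt*, *Hbb-bs* and *Hba-a1* at under 0.1 CPM throughout. The 5 proliferation genes, of which *Mki67* was lower in unstimulated cells, summed to 254 to 339 CPM in unstimulated shControl and to 166 to 266 CPM in unstimulated sh*Ppargc1b* cells, and to 218 to 246 and 143 to 221 CPM with IFN-β. The part of these markers in the differences of the 10 genes was not tested.

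IFN-β was compared with no stimulus in each shRNA background, to see how the segment behaves when DCs are activated by an interferon. These comparisons share their libraries with those of the knockdown. IFN-β-treated libraries had lower TMM factors (0.914 to 0.941) than unstimulated ones (1.07 to 1.09), and with library totals in place of TMM the median log2 fold change of all genes moved from -0.03 to -0.27 for shControl and from -0.02 to -0.22 for sh*Ppargc1b*. The values below are on the TMM scale, and those within this shift depend on it.

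In shControl cells 5 of the 10 transcripts were lower with IFN-β and 1 was higher, with a median log2 fold change of -0.10. Of all genes tested, 24.6% were lower and 23.7% higher, and 31.8% of the abundant genes were lower, so lower values were common among abundant genes in general. In sh*Ppargc1b* cells 5 were again lower and 1 higher, with a median of -0.13, where 21.2% of all genes were lower, 21.4% higher, and 28.2% of the abundant genes lower. The genes were the same ones in both backgrounds: *Fh1*, *Dlst*, *Sdhd*, *Mdh2* and *Suclg1* fell and *Sdhb* rose. All IFN-β libraries were below all unstimulated ones for 6 genes in shControl (29.4% of all genes tested) and for 5 in sh*Ppargc1b* cells (25.4%).

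*Fh1* changed most. The 24.8 to 28 CPM of the unstimulated shControl libraries stood against 13.8 to 15.5 CPM with IFN-β, and the 18 to 21.5 CPM of unstimulated sh*Ppargc1b* against 11.4 to 13.6 CPM. The treated and untreated libraries were far apart in both backgrounds, and *Fh1* differed by -0.80 ± 0.08 on the log2 scale in shControl (adjusted p = 1.01e-06) and by -0.69 ± 0.09 with the knockdown (adjusted p = 8.96e-06). *Fh1* thus fell by 42.6% in shControl, and its mean in cells with both knockdown and IFN-β was 47.2% of that in unstimulated shControl. *Sdhd* also fell with both: its mean was 83.1% of unstimulated shControl with IFN-β alone, 71.3% with the knockdown alone and 62.2% with both. *Fh1* and *Sdhd* were the 2 members that were lower in all 4 comparisons.

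*Dlst* fell from 102 to 109 CPM to 84.4 to 86.9 CPM with IFN-β in shControl (log2 fold change -0.32 ± 0.04, adjusted p = 1.27e-05), and from 90.5 to 97.4 CPM to 76.8 to 83.2 CPM in sh*Ppargc1b* cells (-0.23 ± 0.04, adjusted p = 0.000495). Its partner *Ogdh* did not pass the test in either background, with values of -0.01 (interval -0.10 to 0.08) and 0.02 (interval -0.07 to 0.11). *Sdhd* differed by -0.27 ± 0.04 (adjusted p = 4.8e-05) and -0.20 ± 0.04 (adjusted p = 0.00106), and *Mdh2* by -0.21 ± 0.05 in both backgrounds (adjusted p = 0.00191 and 0.00236). *Suclg1* differed by -0.15 ± 0.05 in shControl (adjusted p = 0.0273), a call that was lost in 6 of 18 alternative fits with adjusted p-values of 0.0521 to 0.15, and by -0.25 ± 0.05 where *Ppargc1b* was knocked down (adjusted p = 0.00152). The 6 fits were that without a low-count filter and those without replicate 1 or 3 of IFN-β-treated shControl, replicate 3 of unstimulated shControl, or replicate 1 or 3 of IFN-β-treated sh*Ppargc1b*.

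*Sdhb* was the one member that was higher. It was at 55.7 to 63.4 CPM without and 65.8 to 68.9 CPM with IFN-β in shControl (log2 fold change 0.15 ± 0.05, adjusted p = 0.0291), and at 42.7 to 47 CPM and 49.9 to 54.2 CPM in sh*Ppargc1b* cells (0.23 ± 0.06, adjusted p = 0.00337). The groups did not overlap in either background, but the direction in shControl rested on the scaling: with library totals the values were -0.09 and 0.03, still above the median of all genes on that scale. Without replicate 2 of unstimulated shControl, the library with the lowest *Sdhb*, the value in shControl was 0.08 (adjusted p = 0.228), and the call was also lost without replicate 3 of unstimulated shControl, replicate 3 of IFN-β-treated shControl or replicate 1 of unstimulated sh*Ppargc1b*, and without a low-count filter. *Sdha* was at 126 to 134 CPM with IFN-β in shControl (-0.02, interval -0.11 to 0.08), and its value in sh*Ppargc1b* cells was 0.10 (interval 0.01 to 0.20, adjusted p = 0.0804, but 0.0313 with a block for runs of library codes and 0.0437 without replicate 2 of IFN-β-treated sh*Ppargc1b*). *Sdhc* was at 0.03 (interval -0.07 to 0.14) and 0.00 (interval -0.11 to 0.10), and *Sucla2* at -0.05 (interval -0.17 to 0.06) and -0.06 (interval -0.17 to 0.06). With library totals *Ogdh*, *Sucla2* and *Sdhc* were called lower in both backgrounds, with log2 fold changes of -0.29 to -0.18, and *Sdha* was so in shControl, at -0.26. The median of all genes shifted by about as much.

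A ratio of 2 transcripts in the same library does not depend on the scaling of that library. The log2 ratios of 10 pairs, the 6 pairs of Sdh genes and 4 pairs of genes that act together or in sequence, were tested over the 12 libraries by exact permutation, two-sided, with the shRNA labels permuted within treatment or the treatment labels within shRNA. Each test had 400 arrangements, and the smallest p it can give is 0.005. P-values were adjusted over all 20 tests. With the knockdown 6 of the 10 ratios differed at an adjusted p under 0.05, and with IFN-β 9 of the 10 did.

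Within succinate dehydrogenase, the knockdown lowered *Sdha* more than *Sdhb* (log2 ratio changed by -0.08, adjusted p = 0.0111) and more than *Sdhc* (-0.18, adjusted p = 0.0167), and it lowered *Sdhd* more than *Sdhc* (*Sdhc*/*Sdhd* 0.17, adjusted p = 0.0111). The ratio of *Sdha* to *Sdhd* changed by -0.01 (adjusted p = 0.69). Those of *Sdhb* to *Sdhc* (-0.10, adjusted p = 0.153) and to *Sdhd* (0.07, adjusted p = 0.0813) did not pass. The *Sdhb*/*Sdhd* ratio passed without replicate 1 of unstimulated shControl (0.09, adjusted p = 0.0182). *Sdhc* was thus lowered less than *Sdha* and *Sdhd*, and *Sdhb* less than *Sdha*. *Sdhb* could not be placed against *Sdhc* or *Sdhd* with this test.

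With IFN-β the subunits parted further, and in another order. The log2 ratio of *Sdhb* to *Sdhd* rose by 0.42 (adjusted p = 0.0111), from -0.65 ± 0.09 to -0.22 ± 0.02 in shControl and from -0.58 ± 0.05 to -0.16 ± 0.05 in sh*Ppargc1b* cells (SD, n = 3). The ratios of *Sdha* and of *Sdhc* to *Sdhd* rose by 0.27 and 0.25 (adjusted p = 0.0111 for both), and that of *Sdha* to *Sdhb* changed by -0.15 (adjusted p = 0.0111). *Sdhb* to *Sdhc* rose by 0.18 (adjusted p = 0.0333), a call that was lost in 5 of the 12 fits that left out a library, with adjusted p-values of 0.0533 to 0.06. The ratio of *Sdha* to *Sdhc* changed by 0.03 (adjusted p = 0.674). The membrane anchor *Sdhd* was thus lowered relative to its 3 partners, and *Sdhb* was raised relative to them.

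The ratio of *Fh1* to *Mdh2*, which act in sequence on fumarate and malate, changed by -0.53 with IFN-β (adjusted p = 0.0111) and by -0.21 with the knockdown (adjusted p = 0.0214). The ratio of *Ogdh* to *Dlst*, components of 1 complex, was 1.59 ± 0.0512 in unstimulated shControl and 1.97 ± 0.046 in IFN-β-treated shControl cells (CPM ratio, SD, n = 3). On the log2 scale it rose by 0.28 with IFN-β (adjusted p = 0.0111) and changed by -0.12 with the knockdown (adjusted p = 0.0167). For succinyl-CoA synthetase, *Sucla2* to *Suclg1* rose by 0.15 with IFN-β (adjusted p = 0.0111) and by 0.09 with the knockdown (adjusted p = 0.0167), and the latter call was lost without any 1 of the 3 IFN-β-treated shControl libraries (adjusted p = 0.05 to 0.0867). *Suclg2*, for the GTP-forming subunit, had a level of 8.17 ± 1.36 CPM without and 6.65 ± 0.516 CPM with IFN-β in shControl, and the ratio of *Sucla2* to it rose by 0.29 with IFN-β (adjusted p = 0.0214) and changed by -0.13 with the knockdown (adjusted p = 0.178). The first call was lost without replicate 2 of IFN-β-treated shControl (adjusted p = 0.05), and the second was gained without replicate 1 of IFN-β-treated sh*Ppargc1b* (-0.18, adjusted p = 0.04).

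**Figure D3:**
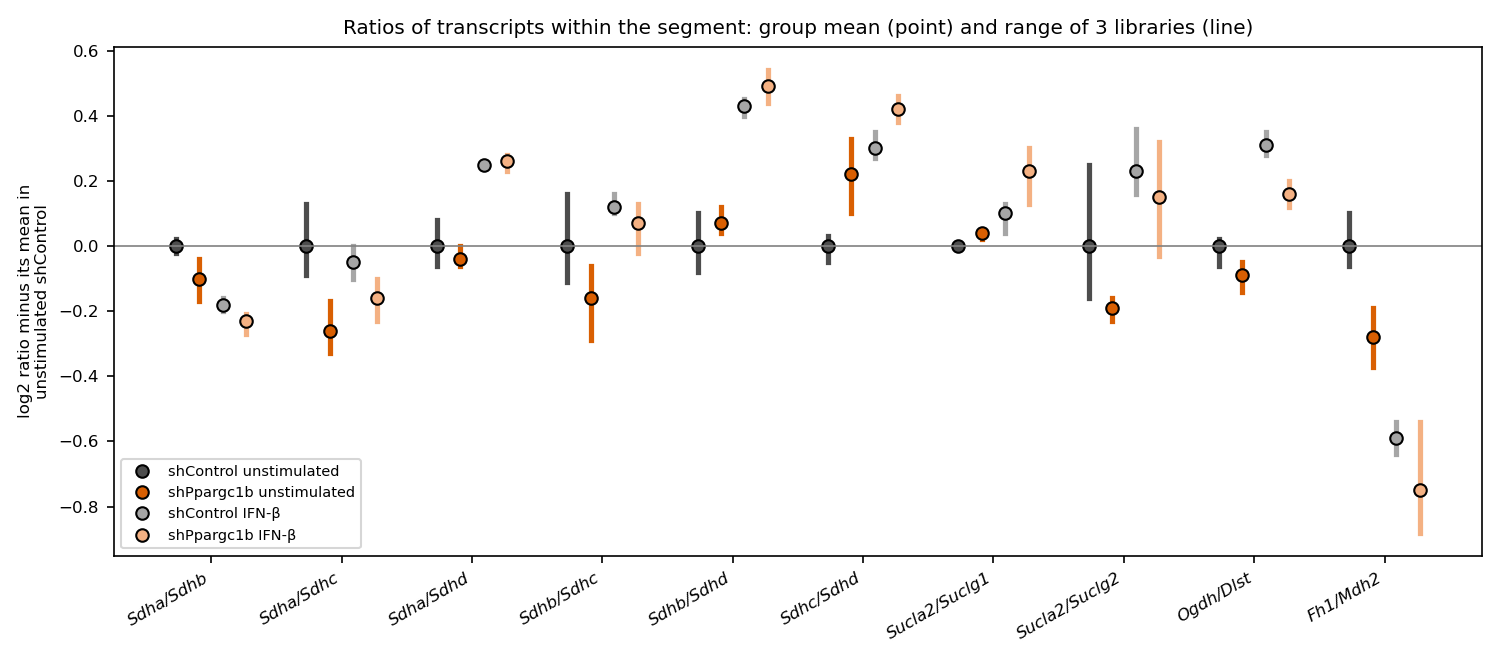
Log2 ratio of 2 transcripts in CPM, minus its mean in unstimulated shControl (vertical axis), for 10 pairs, as group mean (points) and range of 3 libraries (lines). Both IFN-β groups lie above both unstimulated groups for *Sdhb*/*Sdhd*, *Sdha*/*Sdhd* and *Ogdh*/*Dlst* and below them for *Fh1*/*Mdh2*.

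Levels between genes were compared per kilobase of annotated exon. In unstimulated shControl, *Sdhd* was highest at 76.7 ± 2.53 CPM per kb (SD, n = 3), followed by *Sdha* at 31.9 ± 1.65, *Ogdh* at 31.1 ± 1.01, *Mdh2* at 27 ± 0.377, *Sdhb* at 27 ± 1.84, *Sdhc* at 19.2 ± 1.05 and *Dlst* at 11.2 ± 0.403 CPM per kb. *Fh1* at 7.68 ± 0.504, *Suclg1* at 7.43 ± 0.255 and *Sucla2* at 7.12 ± 0.234 CPM per kb were lowest. The libraries of *Sdha* and *Ogdh*, of *Mdh2* and *Sdhb*, and of *Fh1*, *Suclg1* and *Sucla2* overlapped in this order, so those neighbours did not differ beyond their spread. In the 3 other groups *Sdhd* stayed highest and *Fh1* was lowest, at 3.63 ± 0.35 CPM per kb with knockdown and IFN-β together. The order depended on the length used: per kilobase of the longest coding transcript *Dlst* was at 38.7 ± 1.39 and *Mdh2* at 66 ± 0.921 CPM per kb in unstimulated shControl, *Sdhd* was still highest there and *Fh1* was lowest in all 4 groups, but *Mdh2* was above *Sdhd* in both sh*Ppargc1b* groups.

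The head-to-head neighbours were examined because a shared stretch between starts could carry both genes along. They were picked by position, with the values of all genes already in view. *Ccdc127* and *Timm8b* were among the abundant genes, whereas *Prox2* was at 2.7 ± 0.483 CPM and *Styxl1* at 0.166 ± 0.0533 CPM in unstimulated shControl. *Ccdc127*, which starts 29 bases from *Sdha*, was at 39.3, 38.8 and 36.8 CPM in unstimulated shControl and at 35.6, 38.2 and 34.9 CPM with the knockdown, and the groups overlapped (log2 fold change -0.08, interval -0.19 to 0.03, adjusted p = 0.298). *Timm8b*, for a chaperone of mitochondrial protein import that starts 98 bases from *Sdhd*, was at 21, 21.7 and 22.4 CPM against 21.9, 21.2 and 22.9 CPM (0.02, interval -0.11 to 0.15, adjusted p = 0.872). With IFN-β the knockdown values were -0.07 (interval -0.19 to 0.04) for *Ccdc127* and -0.02 (interval -0.14 to 0.11) for *Timm8b*.

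The knockdown therefore changed the ratios across these starts. This follows from the values of the single genes above, so the ratio tests add no separate evidence. The log2 ratio of *Sdha* to *Ccdc127* changed by -0.39 and that of *Sdhd* to *Timm8b* by -0.45 (exact two-sided permutation test, p = 0.005 for both, the smallest it can give, adjusted p = 0.01 over 4 tests), and both held without any 1 library and with log2(CPM + 1), checks that were added after seeing the data (-0.41 to -0.37 and -0.49 to -0.43). With IFN-β *Sdha*/*Ccdc127* rose by 0.20 (adjusted p = 0.0133), while *Sdhd*/*Timm8b* changed by -0.06 (adjusted p = 0.275). The NRF1 motif shown for *Sdha* at 55 bases before its RefSeq start and the ETS site of *Sdhd* lie between the starts of both genes of a pair. The NRF1 motifs shown for *Sdha* at 98 bases and for *Sdhd* lie inside the neighbour.

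**Figure D4:**
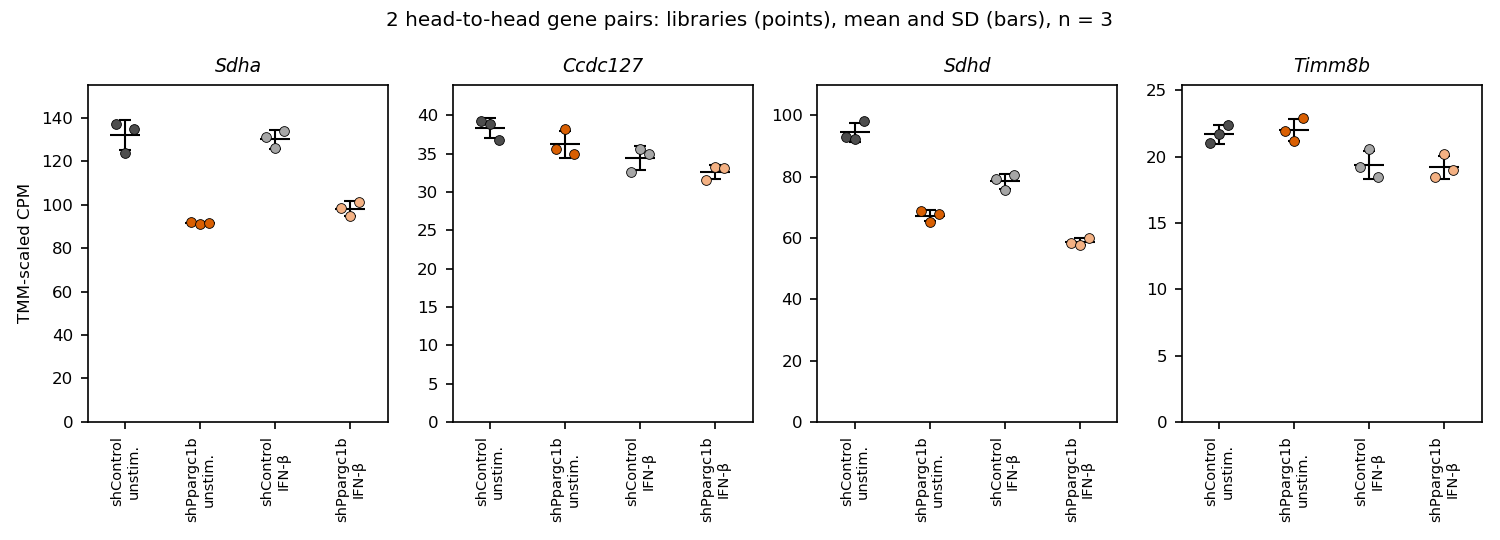
Level in TMM-scaled CPM (vertical axes, from 0) of *Sdha* and *Sdhd* and of the genes that start head to head with them, *Ccdc127* and *Timm8b*, in each library (points) with group mean and SD (bars). The orange sh*Ppargc1b* groups are lower for *Sdha* and *Sdhd*, whereas *Timm8b* is at 21.7 and 22 CPM on average in the unstimulated groups.

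Genes around the segment were counted from lists written with earlier results of these data known. Their counts stand beside 11.1% of all genes tested and 17.9% of abundant genes lower with the knockdown in unstimulated cells, and 12.7% and 21.0% with IFN-β. Of 6 enzymes from citrate to 2-oxoglutarate, 5 were lower and none higher with the knockdown in unstimulated cells (median log2 fold change -0.39), and 3 were lower with IFN-β (-0.24). The subunit *Idh3b* of isocitrate dehydrogenase (-0.43 and -0.25 without and with IFN-β, adjusted p = 2.22e-05 and 0.00276) and citrate synthase, *Cs* (-0.20 and -0.27, adjusted p = 0.00299 and 0.000293), were lower in both. Of 12 partners of the segment enzymes 3 were lower and 1 higher without IFN-β (median -0.08), and 3 lower and none higher with it (-0.01), which is near the share among abundant genes. *Dld*, for the component that the 2-oxoglutarate dehydrogenase complex shares with other dehydrogenases, fell in both (-0.21 and -0.23, adjusted p = 0.00648 and 0.00356), while its values for IFN-β were 0.05 in shControl and 0.03 with the knockdown and did not pass. The cytosolic malate dehydrogenase *Mdh1* also fell in both (-0.23 and -0.14, adjusted p = 0.000882 and 0.0246), the latter with a call that was lost in 10 of 18 alternative fits. The GTP-forming *Suclg2* did not pass (0.10, interval -0.14 to 0.34, and 0.00, interval -0.25 to 0.25).

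*Acod1*, for the enzyme that makes itaconate, an inhibitor of succinate dehydrogenase, moved the other way. It was at 390, 394 and 370 CPM in unstimulated shControl and at 676, 659 and 647 CPM in unstimulated sh*Ppargc1b* cells, with no overlap (log2 fold change 0.78 ± 0.05, adjusted p = 5.8e-08). With IFN-β it was at 1890, 2130 and 2000 CPM in shControl and at 2300, 2120 and 2130 CPM with the knockdown, where the groups overlapped (0.12, interval 0.01 to 0.23, adjusted p = 0.0971, but 0.0422 with library totals and 0.0313 without a low-count filter). With IFN-β it rose by 2.38 ± 0.05 on the log2 scale where shControl was expressed (adjusted p = 7.77e-15) and by 1.72 ± 0.05 where sh*Ppargc1b* was (adjusted p = 2.88e-13). *Sucnr1*, for the cell surface receptor of succinate, had at most 9 counts in a library and was not tested, and its count of 0 in each unstimulated shControl library allows up to 3 counts there.

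Genes of complex III and of other routes that bring electrons to ubiquinone made a list of 16. Of these, 12 were lower and 1 higher with the knockdown in unstimulated cells (median -0.31). With IFN-β 10 were lower and none higher (-0.25). Those of complex III included *Uqcrh* (-0.60 and -0.50, adjusted p = 2.65e-06 and 1.73e-05), *Uqcrc2* (-0.40 and -0.35), *Uqcrfs1* (-0.40 and -0.34) and *Uqcrc1* (-0.37 and -0.25), and the electron-transferring flavoprotein pathway included *Etfdh* (-0.46 and -0.39) and *Etfa* (-0.30 and -0.24), all with adjusted p-values of 0.00159 or less. Of 37 nuclear subunits of complex I, 20 were lower and none higher in unstimulated cells (median -0.21) and 13 with IFN-β (-0.19). *Ndufs1* (-0.37 and -0.30, adjusted p = 9.03e-06 and 7.32e-05), *Ndufb5* (-0.46 and -0.33), *Ndufa10* (-0.32 and -0.22), *Ndufc1* (-0.44 and -0.30), *Ndufs3* (-0.34 and -0.35) and *Ndufv1* (-0.38 and -0.36) were lower in both. Of 11 genes chosen as a sign of mitochondrial content, such as import receptors and porins, 2 were lower and none higher in unstimulated cells (median -0.01), which is near the 17.9% of abundant genes, and 4 were lower and 2 higher with IFN-β (-0.09). *Vdac1* (-0.20 and -0.33) and *Cycs*, for cytochrome c (-0.21 and -0.17), were the ones lower in both.

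Genes that feed or drain the segment went both ways with the knockdown. Of 12 genes for entry at 2-oxoglutarate, 5 were lower and 2 higher without IFN-β (median -0.01) and 2 were lower and 2 higher with it (0.06). Glutamate dehydrogenase, *Glud1*, fell in both (-0.41 and -0.27, adjusted p = 1.62e-05 and 0.000573), as did *D2hgdh* (-0.30 and -0.23), while *Aldh18a1*, of proline synthesis, rose (0.34 and 0.42). Of 15 genes listed at succinyl-CoA, succinate and fumarate, 13 were tested. Without IFN-β 2 were lower and 2 higher (median -0.03), and with it 5 were lower and 4 higher (-0.16). The list took in *Suox*, 1 of these 4, which is sulfite oxidase and acts on none of the named compounds. *Alas1*, which draws succinyl-CoA into haem (0.43 and 0.34, adjusted p = 0.000113 and 0.000905), and *Fah*, which releases fumarate from tyrosine (0.69 and 0.65), rose in both, whereas *Oxct1*, which uses succinyl-CoA to activate ketone bodies, fell (-0.32 and -0.34). Of 12 genes for *Hif1a* and dioxygenases that use 2-oxoglutarate and release succinate, 3 were lower and 2 higher without IFN-β (median -0.08) and 5 lower and 2 higher with it (-0.12). *Hif1a* (0.37 and 0.31, adjusted p = 0.00018 and 0.000856) and *Kdm4a* (0.39 and 0.43) rose in both, and *Tet2* (-0.19 and -0.21), *Tet3* (-0.20 and -0.12) and *Hif1an* (-0.20 and -0.18) fell in both.

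Some of these calls depended on single libraries or settings. In unstimulated cells, *Aldh18a1* was no longer called without replicate 1 or 2 of shControl or replicate 2 or 3 of sh*Ppargc1b* (adjusted p = 0.0996 to 0.127), *Vdac1* without replicate 1 of shControl or replicate 2 or 3 of sh*Ppargc1b* (0.0581 to 0.0618), *Cycs* without replicate 3 of shControl or replicate 1 of sh*Ppargc1b* or with the 2 compared groups alone (0.0769, 0.0563 and 0.0517), and *Oxct1* without replicate 1 of shControl or replicate 2 of sh*Ppargc1b* (0.0571 for both). With IFN-β, *Ndufc1* was lost without replicate 3 of shControl or replicate 1 of sh*Ppargc1b* (0.0609 and 0.0679), *Fah* without replicate 1 of sh*Ppargc1b* (0.0585), and *Aldh18a1* without replicate 2 of shControl or replicate 1 of sh*Ppargc1b* (0.0673 and 0.0765). *D2hgdh*, *Tet3* and *Cycs* were lost in 13, 11 and 9 of 18 alternative fits with IFN-β. *Hif1an* was lost without a low-count filter in both conditions (0.0929 without and 0.136 with IFN-β) and with the 2 compared groups alone with IFN-β (0.0517).

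With IFN-β as the comparison, the lists around the segment showed the following counts on the TMM scale, beside 24.6% of all genes tested and 31.8% of abundant genes lower in shControl and 21.2% and 28.2% in sh*Ppargc1b* cells. From citrate to 2-oxoglutarate 5 of 6 genes were lower in shControl (median -0.34) and 4 in sh*Ppargc1b* cells (-0.16), with none higher. At 2-oxoglutarate 8 of 12 were lower and none higher in shControl (-0.32) and 6 and none in sh*Ppargc1b* cells (-0.21). Complex I had 13 of 37 lower and 2 higher in shControl (-0.08) and 6 and 2 in sh*Ppargc1b* cells (-0.06), shares near and below that of abundant genes. The other ubiquinone-linked genes had 7 of 16 lower and 2 higher in both (-0.14 and -0.04). The genes listed at succinyl-CoA, succinate and fumarate had 5 of 13 lower and 1 higher in shControl (-0.13), with *Suox* among the 5. In sh*Ppargc1b* cells they had 6 and 1 (-0.22). The partners had 5 of 12 lower and 1 higher in shControl (-0.19) and 3 and 1 in sh*Ppargc1b* cells (-0.08). Among the genes of mitochondrial content 6 of 11 were lower and 4 higher in shControl (-0.15) and 6 and 3 in sh*Ppargc1b* cells (-0.19), and among the dioxygenases and *Hif1a* 2 of 12 were lower and 5 higher (0.08) and 3 and 5 (0.10).

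**Figure D5:**
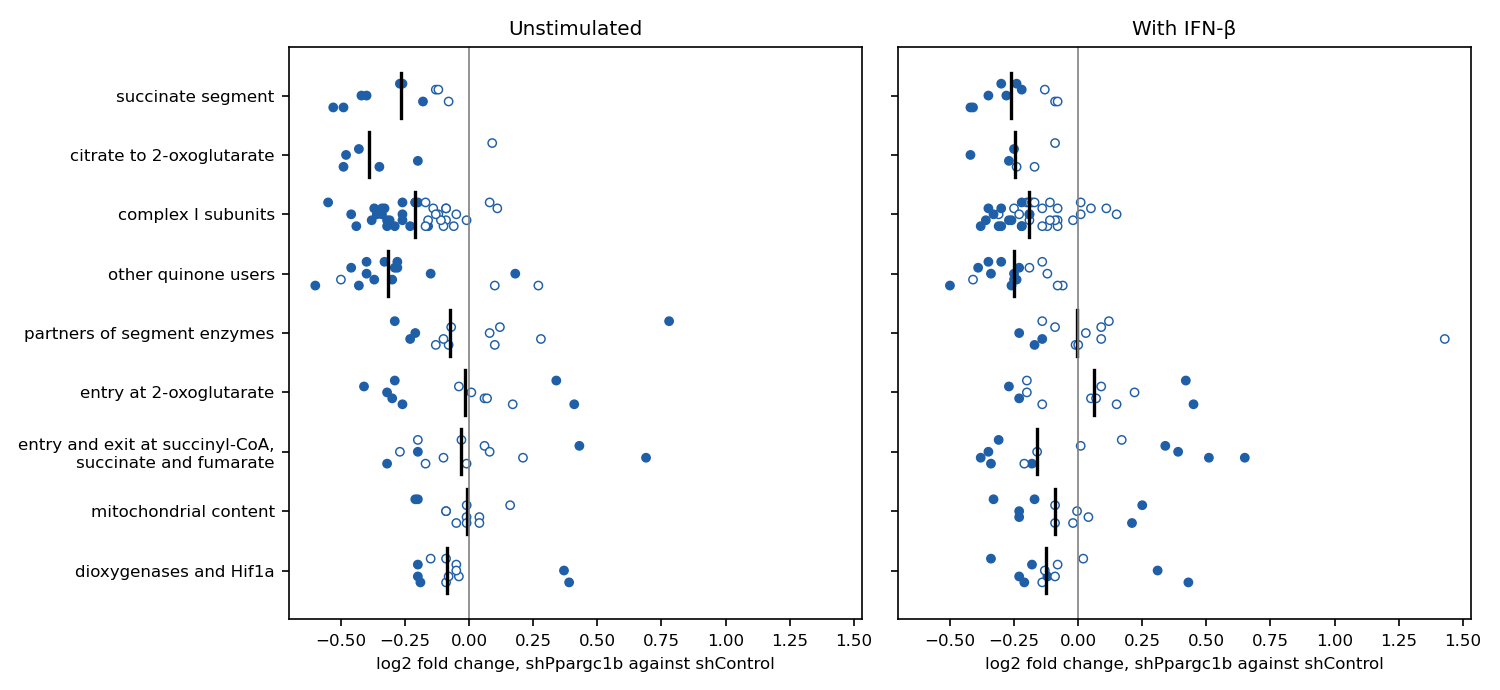
Log2 fold change of each tested gene for sh*Ppargc1b* against shControl (horizontal axes), unstimulated (left) and with IFN-β (right), for the succinate segment and 8 lists around it, with filled points where the adjusted p was under 0.05 and black lines at the list medians. The medians of the first 4 rows lie between -0.39 and -0.19, and those of the 5 rows below them between -0.16 and 0.06.

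The genes whose pattern over the 12 libraries was most like that of the segment were named from the 8761 abundant genes outside the 10 that have a symbol. For the mean of the 4 standardised Sdh genes these were *Naaa* (Pearson r = 0.996), *Ppp2r5c* (0.986), *Atp5b* (0.986), *Irak4* (0.985) and *Atp5mpl* (0.985), of which *Atp5b* and *Atp5mpl* belong to ATP synthase. For the mean of all 10 they were *Dpp9* (0.984), *Acaa2* (0.983), *Fam168b* (0.982), *Tbc1d2* (0.981) and *Ctps2* (0.979). The 12 points share their group means, so these values mostly describe the order of the 4 groups. Their log2 fold changes with the knockdown, which a choice by pattern fixes in part, ran from -0.19 for *Ctps2* to -0.78 for *Naaa* without IFN-β and from -0.17 to -0.74 for the same genes with it.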

How the data were processed

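The 12 libraries were ribosome-depleted RNA-seq libraries. The authors trimmed adapters and aligned read pairs to mm10 with STAR, counting uniquely mapped pairs per gene of GENCODE M20 (STAR 2.7.8a and Trim Galore 0.6.0 in the submitters' processing notes), and the deposited values are raw counts. The strand setting was not stated. Testing used edgeR 4.0.16 under R 4.3.3: filterByExpr (minimum count 10, minimum total 15), TMM scaling, 1 mean per group over all 12 libraries, quasi-likelihood F-tests, and Benjamini-Hochberg adjustment over 18228 genes with a threshold of 0.05. Every adjusted p of a gene comes from this edgeR test, SE and 95% intervals are from the same fit, and interaction values are the knockdown effect with IFN-β minus that without. Ratios used TMM-scaled CPM with exact permutation tests that went through every arrangement, written in Python. Positions and exon lengths came from GENCODE M21 (GRCm38). Pattern likeness used log2 CPM with a prior count of 2. The members and lists were chosen with earlier results of these data known. Named were all 10 members, *Suclg2*, *Dld*, *Mdh1*, *Acod1*, *Sucnr1* and *Ppargc1b*, and from each list up to 6 genes called in both knockdown contrasts, lowest unstimulated p first. Markers and head-to-head neighbours were named besides, the latter after their values could be seen. Some genes that these rules would name are not reported here. Alternatives were library totals, relative log expression factors, no low-count filter (at least 1 count), DESeq2 1.42.0, the compared groups alone, a block for runs of library codes, a threshold of 0.01, leaving out each library, and for ratios log2(CPM + 1).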

Additional observations from a re-analysis of the deposited data

Results flagged for a closer look

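None of the 10 segment genes was singled out, but 3 genes of the lists around them had a knockdown effect that differed between IFN-β-treated and unstimulated cells by the edgeR test of the interaction, in which 0.730% of all genes passed. For *Acod1*, the itaconate-forming enzyme, the knockdown effect was lower with IFN-β than without it by a log2 difference of -0.66 ± 0.07 (SE, adjusted p = 0.000744), and the call held in all 17 alternative fits. For *Tomm70a*, of the mitochondrial import receptor, the log2 difference was -0.28 ± 0.05 (adjusted p = 0.0208), from 0.04 without to -0.23 with IFN-β, and it was lost in 6 of 17 alternative fits, with adjusted p-values of 0.0532 to 0.082. For *Gpd2*, the mitochondrial glycerol-3-phosphate dehydrogenase that also reduces ubiquinone, it was -0.30 ± 0.06 (adjusted p = 0.0359), from 0.18 without to -0.12 with IFN-β, and it was lost in 9 of 17 alternative fits, with adjusted p-values of 0.0542 to 0.139. Each group had 3 libraries, and no test of single outlying libraries was made.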

How the results depend on the processing

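Of 890 values of segment genes under alternatives, 815 kept their sign and their side of the threshold, 17 lost and 12 gained a call, and 46 changed sign, 43 of them without a call in either fit. The members called numbered 7 to 8 for the knockdown without and 6 to 8 with IFN-β, 4 to 9 for IFN-β in shControl, 6 to 8 in sh*Ppargc1b* cells and 0 throughout for the interaction. The 9 came with library totals, and the 4 without a low-count filter, at a threshold of 0.01, and without replicate 3 of either shControl group. Of the ratios 5 to 7 passed for the knockdown and 8 to 9 for IFN-β. The cause of these changes was not tested.

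With library totals the IFN-β log2 values changed sign for *Sdhb* (-0.09), *Sdhc* (-0.21) and *Dld* (-0.19) in shControl and for *Ogdh* (-0.18), *Sdha* (-0.10) and *Dld* (-0.17) in sh*Ppargc1b* cells, as did the interactions of *Sucla2* (0.03) and *Sdhc* (0.00) and *Timm8b* with knockdown and IFN-β (0.01). Values near 0 also changed sign with other factors, with DESeq2 or with the compared groups alone: IFN-β on *Ogdh* (0.00 and 0.01) and *Sdha* (0.00) in shControl and on *Sdhc* in sh*Ppargc1b* cells (0.01), the interaction of *Mdh2* (0.00, and -0.01 without a filter), and the knockdown with IFN-β on *Suclg2* and *Timm8b* (0.00 for both). Leaving out 1 library gave ranges across 0 for IFN-β in shControl on *Ogdh* (-0.04 to 0.03), *Sdha* (-0.07 to 0.03), *Sdhc* (-0.02 to 0.06) and *Dld* (-0.01 to 0.11), and in sh*Ppargc1b* cells on *Sdhc* (-0.04 to 0.03) and *Ppargc1b* (-0.15 to 0.07). The same held for the interactions of *Ogdh* (0.00 to 0.08), *Sucla2* (-0.04 to 0.05), *Sdhc* (-0.06 to 0.02) and *Mdh2* (-0.07 to 0.04), for the knockdown on *Suclg2* (-0.03 to 0.21 without and -0.08 to 0.04 with IFN-β) and *Timm8b* (-0.01 to 0.04 and -0.06 to 0.01), and for *Sdha*/*Sdhd* (-0.03 to 0.01).

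The labels give no replicate numbers to pair libraries across groups. The library codes fall into runs of 4 with 1 library of each group, which the labels do not call a batch. Deviations from group means correlated at a median of 0.284 within runs (-0.134 to 0.484, 18 pairs of libraries, 8773 genes) and -0.117 between them. With the runs as a block 8, 7, 6 and 7 members were called in the 4 comparisons.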
